A study of Mus musculus with 9 samples.

Results

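The mouse mitochondrial genome carries 37 genes, and all 37 were measured in these hearts: 13 protein-coding genes, 2 rRNA genes and 22 tRNA genes. They were chosen by position alone, as every exonic part placed on chromosome MT, which gave 43 parts under 31 of the table's 54660 gene identifiers. That rule uses no measured value, although the set was taken up with earlier results of these data known. The part edges of all 37 genes were the same as the GENCODE M21 gene edges, so gene classes and strands were taken from that annotation.

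The hearts came from mice aged 12 weeks in 3 groups of 3 libraries. One group was wild-type, and the other groups carried a knock-in Rbm20 allele made with CRISPR/Cas on 1 chromosome (heterozygous) or on both (homozygous). That allele lacks 2 bases and is named p.Q374Rfs, a frameshift in Rbm20, which encodes a cardiac RNA-binding splicing regulator. Total RNA was made into strand-specific libraries (NEBNext Ultra II Directional) and read as pairs of 150 bases, and the labels name no poly(A) selection or rRNA depletion. Separate animals are not stated for the replicates, so the spread behind each p-value is that between libraries and may be technical.

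Mitochondrial DNA is transcribed from both strands into long precursors that span nearly the whole circle. Enzymes cut these precursors at the tRNAs, which releases the mRNAs and rRNAs that lie between them. The mRNAs encode core subunits of respiratory complexes I, III, IV and V, and heart muscle is known for a high content of mitochondria and of these RNAs. In bulk tissue, fewer cells of a type and less RNA per cell cannot be told apart.

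The genes are packed with few gaps, and 9 neighbouring pairs overlap. Of the 37 genes, 28 are read from the + strand of the reference (here called heavy-strand transcripts) and 9 from the - strand (light-strand transcripts: mt-Nd6 and 8 tRNA genes). The longest overlap, 43 bases, joins mt-Atp8 and mt-Atp6 at MT:7927-7969 on the + strand. It is shown because reads within it belong to both genes. Capitals mark the ATG that opens mt-Atp6 and the TAA that closes mt-Atp8.
mt-Atp8/mt-Atp6 overlap: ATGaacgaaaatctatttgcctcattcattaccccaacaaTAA

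The tRNA sequences printed next, from GENCODE M21 transcripts (GRCm38), belong to the genes that the results turn on, with the anticodon in capitals. The first set, mt-Tv (tRNA-Val, MT:1025-1093, + strand), mt-Tm (tRNA-Met, MT:3845-3913, +), mt-Tr (tRNA-Arg, MT:9808-9875, +) and mt-Tp (tRNA-Pro, MT:15356-15422, -), came nearest to the threshold between genotypes.
mt-Tv: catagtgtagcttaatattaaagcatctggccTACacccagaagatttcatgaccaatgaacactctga
mt-Tm: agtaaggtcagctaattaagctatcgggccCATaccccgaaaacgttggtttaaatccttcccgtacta
mt-Tr: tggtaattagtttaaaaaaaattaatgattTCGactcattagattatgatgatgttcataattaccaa
mt-Tp: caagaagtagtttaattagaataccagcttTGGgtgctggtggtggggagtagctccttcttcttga
The second set holds the tRNA genes with the highest levels, mt-Ts1 (tRNA-Ser with anticodon TGA, MT:6870-6938, -) and mt-Te (tRNA-Glu, MT:14071-14139, -). It also holds mt-Td (tRNA-Asp, MT:6942-7011, +), which is the next gene after mt-Ts1, and mt-Tf (tRNA-Phe, MT:1-68, +), which had the lowest level of all 37.
mt-Ts1: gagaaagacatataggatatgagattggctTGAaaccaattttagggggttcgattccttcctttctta
mt-Te: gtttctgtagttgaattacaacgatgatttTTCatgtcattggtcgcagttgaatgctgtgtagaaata
mt-Td: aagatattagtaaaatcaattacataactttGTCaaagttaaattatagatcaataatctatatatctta
mt-Tf: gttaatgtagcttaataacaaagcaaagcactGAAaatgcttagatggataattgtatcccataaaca

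Inclusion counts, which are reads assigned to a part, summed to between 296629818 and 323205269 per library. Rbm20 itself, given to check the labels, had 104 to 132 CPM (counts scaled to library size) in wild-type, 68.4 to 90.2 in heterozygous and 51.8 to 66.0 CPM in homozygous libraries, and its ranges did not overlap between groups. Cardiomyocyte markers summed to 52050 to 73110 CPM in every library, and markers of endothelium, fibroblasts and leukocytes were each under 1000 CPM. Erythroid markers summed to 3432 to 9054 CPM and skeletal muscle markers to 1592 to 2048 CPM. The skeletal muscle sum is not split by gene here and does not by itself show skeletal muscle RNA in the hearts. Atrial markers summed to 1007 CPM in heterozygous replicate 3 and to at most 89.4 CPM in the other libraries. Library numbers fell in 2 ranges, with wild-type replicates 2 and 3 and heterozygous replicate 3 in the higher one and all homozygous libraries in the lower.

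About 18% of all inclusion counts fell on parts of the mitochondrial genome, in every genotype. This is a share of counts over parts, and it was smaller when parts were scaled per base, as given under the processing. The 37 genes took 17.1, 18.97 and 18.4% in the wild-type libraries, 19.7, 17.8 and 17.5% in the heterozygous and 18.02, 16.8 and 19.4% in the homozygous libraries. The means were 18.2 ± 0.932% (SD, n = 3), 18.3 ± 1.16% and 18.1 ± 1.30%, and each group's range overlapped the others. Protein-coding genes held nearly all of it, with shares from 15.7% to 18.4% per library.

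The 2 rRNA genes took a smaller share of reads in homozygous than in wild-type libraries, with no overlap. Their share was 0.775, 0.882 and 0.761% in the wild-type libraries, 0.792, 0.755 and 0.698% in the heterozygous and 0.724, 0.704 and 0.6801% in the homozygous libraries. The means were 0.806 ± 0.0661% in wild-type and 0.703 ± 0.0222% in homozygous hearts (SD, n = 3), and the heterozygous range overlapped both. As a share of mitochondrial reads alone, rRNA made up 4.14% to 4.65% in wild-type and 3.50% to 4.17% in homozygous libraries, so there the groups overlapped. As no rRNA depletion or poly(A) selection is named, rRNA lost or kept in library preparation cannot be told apart from rRNA level. A share over chosen genes was not tested. Beside this, 30.5% of all genes tested had no overlap in CPM between homozygous and wild-type libraries, in either direction. On total counts, as in these shares, the median log2 fold change of all genes was itself -0.10 in homozygous against wild-type hearts. The tRNA genes took 0.361% to 0.445% of reads, and their groups overlapped.

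**Figure D1:**
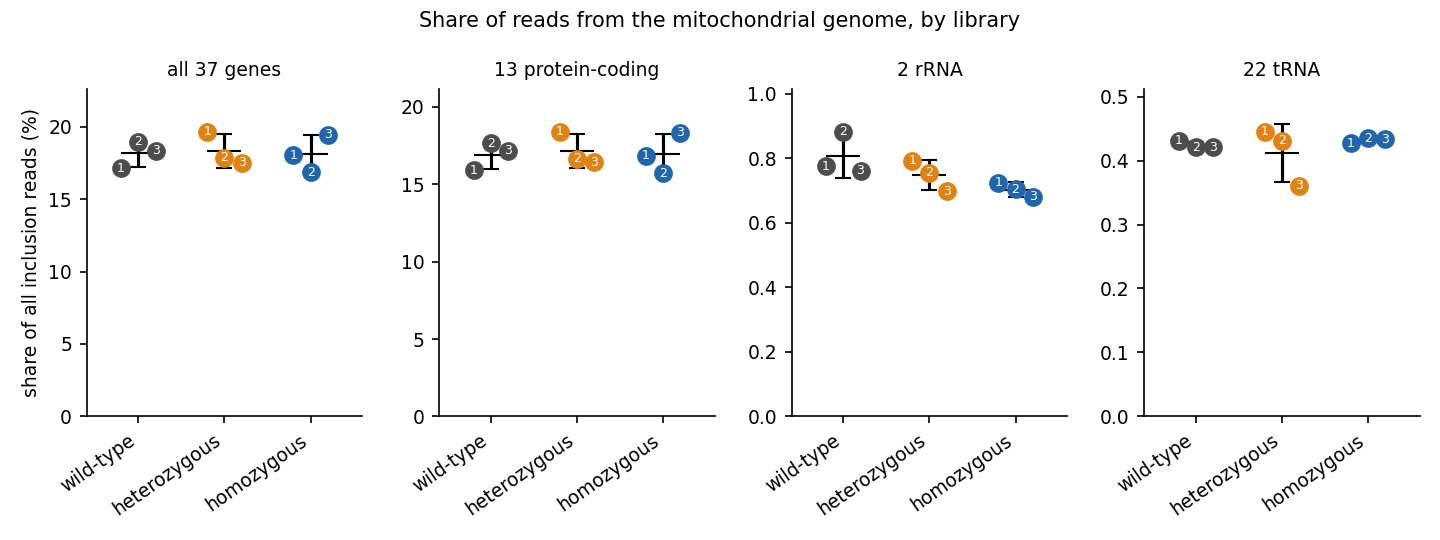
Share of all inclusion reads (summed inclusion counts, %, y axis from 0) taken by all 37 mitochondrial genes and by each class, in 3 genotypes. Points are libraries numbered by replicate, and bars are the mean ± SD of 3 libraries. The total lies between 16.9% and 19.7% in every group, and the homozygous rRNA shares (0.680% to 0.724%) lie below the wild-type ones (0.761% to 0.882%).

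Levels are compared between genes per base: reads of a gene's own parts, divided by their length plus 148 bases then set on the CPM scale with library sizes adjusted by TMM (trimmed mean of M values). The added 148 bases are those in the deposited PSI formula. With such a formula a short tRNA part may also hold reads that run in from its neighbours. The part shared by mt-Atp6 and mt-Co3 is 1 base long and held 242684 to 289181 reads per library. Reads that run past the edges of a part were therefore counted in it. Whether every read that touches a part was counted there is not given in the sources used here. Part length alone, used below for comparison, makes no allowance for such reads and raises the levels of short parts most.

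The 2 rRNA genes, which form the small and the large subunit of the mitochondrial ribosome, had low levels per base beside the mRNAs. No poly(A) selection or rRNA depletion is named in the labels, and either could change these levels. They and the place of the rRNA genes in the order below therefore describe the libraries, not the rRNA content of the tissue. The level of mt-Rnr1 (small subunit) was 1.89, 1.997 and 1.65 in the wild-type libraries, 1.99, 2.096 and 1.53 in the heterozygous and 1.76, 2.03 and 1.71 in the homozygous libraries. The level of mt-Rnr2 (large subunit) was 3.15, 3.62 and 3.25 in the wild-type libraries, 3.43, 3.03 and 2.82 in the heterozygous and 3.06, 3.03 and 3.101 in the homozygous libraries. The homozygous libraries lay below the wild-type ones for mt-Rnr2 and overlapped them for mt-Rnr1. The rRNA genes together reached 0.180 to 0.242 of the protein-coding level per base.

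Complex I takes 7 subunits from this genome, and they spanned a wide range of levels. For mt-Nd1 the level was 7.15, 8.32 and 7.96 in the wild-type libraries, 8.61, 8.36 and 7.46 in the heterozygous and 7.77, 8.07 and 8.94 in the homozygous libraries. For mt-Nd2 it was 6.02, 5.61 and 5.93 in the wild-type libraries, 6.55, 5.44 and 5.05 in the heterozygous and 5.57, 4.92 and 6.09 in the homozygous libraries. The genotypes overlapped for both. For mt-Nd3, the lowest mRNA of all, it was 1.155, 1.51 and 1.303 in the wild-type libraries, 1.51, 1.501 and 1.19 in the heterozygous and 1.398, 1.79 and 1.62 in the homozygous libraries. For mt-Nd4l it was 6.699, 7.803 and 8.58 in the wild-type libraries, 8.92, 6.44 and 7.65 in the heterozygous and 7.54, 5.28 and 8.85 in the homozygous libraries. Homozygous replicate 2 was the lowest library for mt-Nd4l and the highest for mt-Nd3. For mt-Nd4, whose transcript is shared with mt-Nd4l, it was 10.2, 11.9 and 12.1 in the wild-type libraries, 12.9, 10.6 and 10.8 in the heterozygous and 11.9, 10.3 and 13.8 in the homozygous libraries. For mt-Nd5 it was 4.102, 4.27 and 5.17 in the wild-type libraries, 5.43, 3.64 and 3.96 in the heterozygous and 3.97, 3.24 and 5.12 in the homozygous libraries. Homozygous replicate 2 was also the lowest library for mt-Nd5, and the groups overlapped. For mt-Nd6, the only mRNA of the light strand, it was 6.96, 6.94 and 7.905 in the wild-type libraries, 8.59, 7.395 and 6.06 in the heterozygous and 7.51, 8.41 and 8.99 in the homozygous libraries. Heterozygous replicate 3 was the lowest there and homozygous replicate 3 the highest.

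Complex III takes cytochrome b from this genome. The level of mt-Cytb was 10.6, 11.8 and 11.7 in the wild-type libraries, 12.6, 11.1 and 10.3 in the heterozygous and 11.8, 11.8 and 13.5 in the homozygous libraries. These groups overlapped.

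Complex IV takes its 3 catalytic-core subunits from this genome, and they had high levels per base. The level of mt-Co1 was 23.6, 24.4 and 24.1 in the wild-type libraries, 27.1, 24.6 and 22.6 in the heterozygous and 24.02, 24.2 and 28.4 in the homozygous libraries, and this gene alone held 22.6% to 23.9% of mitochondrial reads. The level of mt-Co2 was 15.7, 17.1 and 15.8 in the wild-type libraries, 18.9, 18.5 and 15.3 in the heterozygous and 18.5, 20.7 and 19.4 in the homozygous libraries. The level of mt-Co3 was 14.95, 17.8 and 15.98 in the wild-type libraries, 18.99, 17.9 and 15.97 in the heterozygous and 17.4, 18.7 and 18.7 in the homozygous libraries. For mt-Co2 all homozygous libraries lay above all wild-type ones, and for mt-Co1 and mt-Co3 the groups overlapped.

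Complex V takes the proton-channel subunit mt-Atp6 and the small subunit mt-Atp8, which lie on 1 transcript. The level of mt-Atp8 was 13.4, 14.8 and 13.9 in the wild-type libraries, 16.8, 14.3 and 13.98 in the heterozygous and 14.6, 13.4 and 17.7 in the homozygous libraries. The level of mt-Atp6 was 20.9, 23.7 and 22.4 in the wild-type libraries, 26.4, 24.1 and 21.9 in the heterozygous and 23.5, 24.3 and 28.4 in the homozygous libraries. The ratio of mt-Atp8 to mt-Atp6 stayed between 0.593 and 0.639 in 8 libraries and was 0.549 in homozygous replicate 2. With part length alone, without the added 148 bases, the ratio was 0.856 to 0.995.

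In wild-type hearts the order of mRNA and rRNA genes by mean level per base was mt-Co1, mt-Atp6, mt-Co3, mt-Co2, mt-Atp8, mt-Nd4, mt-Cytb, mt-Nd1, mt-Nd4l, mt-Nd6, mt-Nd2, mt-Nd5, mt-Rnr2, mt-Rnr1 and mt-Nd3. Of the 14 neighbouring pairs in that order, 5 overlapped between libraries: mt-Co1 with mt-Atp6, mt-Co3 with mt-Co2, mt-Nd4 with mt-Cytb, mt-Nd1 with mt-Nd4l, and mt-Nd4l with mt-Nd6. The top of this order depends on the added 148 bases. With part length alone the wild-type means were 27.5 for mt-Atp6, 26.95 for mt-Atp8 and 26.3 for mt-Co1, and the tRNA gene mt-Ts1 came next at 24.2.

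**Figure D2:**
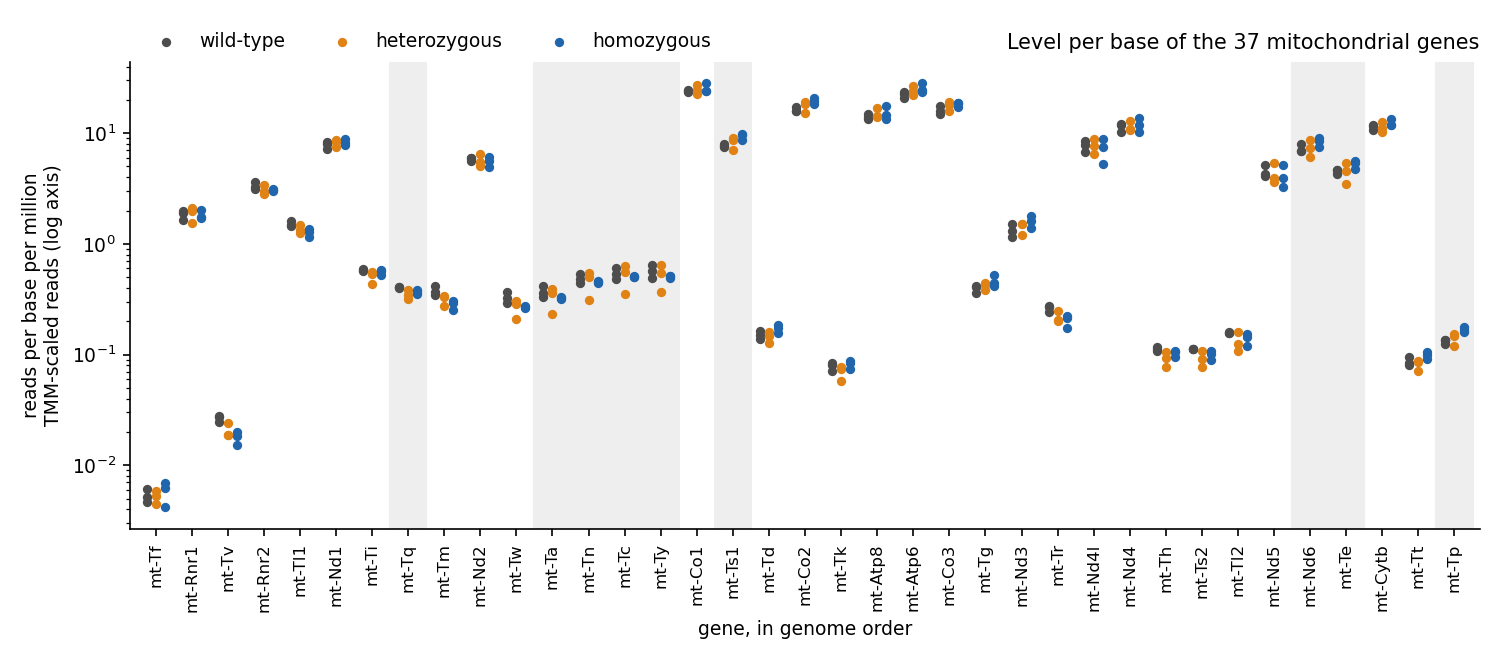
Level per base (TMM-scaled CPM per base, log axis) of the 37 genes in genome order, with 1 point per library coloured by genotype. Grey bands mark the 9 light-strand genes. mt-Co1 reaches 28.4 while mt-Tf stays at or under 0.00698, and among the tRNA genes mt-Ts1 and mt-Te stand at the height of mRNAs.

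The order has a further limit, because at least 7 of the 13 protein-coding genes have a near-identical copy on chromosome 1 with which reads could be shared. A search of GENCODE M21 nuclear transcripts (at least 98% identity over at least 100 bases) found Gm29216 for mt-Co1, Gm28661 for mt-Co2, Gm10925 for mt-Atp6, Gm28437 for mt-Co3, Gm28438 for mt-Nd3, Gm10222 for mt-Nd4l and Gm28439 for mt-Nd4. The lowest identity was 99.7%, and the deposited table places all 7 copies together at 1:24650616-24655278 (GRCm39). Only annotated transcripts were searched, and the minimum of 100 bases is longer than any tRNA gene here. Copies of mt-Atp8 or of tRNA genes in the stretches between these transcripts would have been missed.

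Per base, 6 of the copies stood between 0.881 and 1.11 times the level of the gene they match in every library. The level per base of Gm28661 was between 0.983 and 1.03 times that of mt-Co2 in the 9 libraries, and that of Gm28437 was 1.03 to 1.11 times that of mt-Co3. Gm29216, which matches only a part of mt-Co1, stood lower, at 0.580 to 0.708 times. In all, the copies took 7.05, 8.15 and 7.62% in the wild-type libraries, 8.22, 7.73 and 7.53% in the heterozygous and 7.85, 7.46 and 8.49% in the homozygous libraries. Adding them raised the mitochondrial share to between 24.2% and 27.9% per library. How the counting step treated reads that match both places is not given in the sources used here.

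Adding the copies' reads assumes that shared reads were divided between a gene and its copy, and not counted at both. This was not tested. On that assumption, mt-Atp6 led in wild-type hearts at 44.3 ± 2.86 (SD, n = 3) on the same per-base scale. It was followed by mt-Co3 at 33.2 ± 2.93, mt-Co2 at 32.5 ± 1.30, mt-Co1 at 29.4 ± 0.595, mt-Nd4 at 19.1 ± 1.91 and mt-Nd4l at 16.05 ± 1.91. The level of mt-Nd3 became 2.51 ± 0.324, still under mt-Rnr2. No copy reads were added for mt-Atp8, so its place in this order is not settled. None of the 7 copies, tested under 6 identifiers, passed the test between genotypes. Their lowest edgeR adjusted p was 0.122, in homozygous against wild-type hearts, where 4.39% of all genes tested were called.

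**Figure D3:**
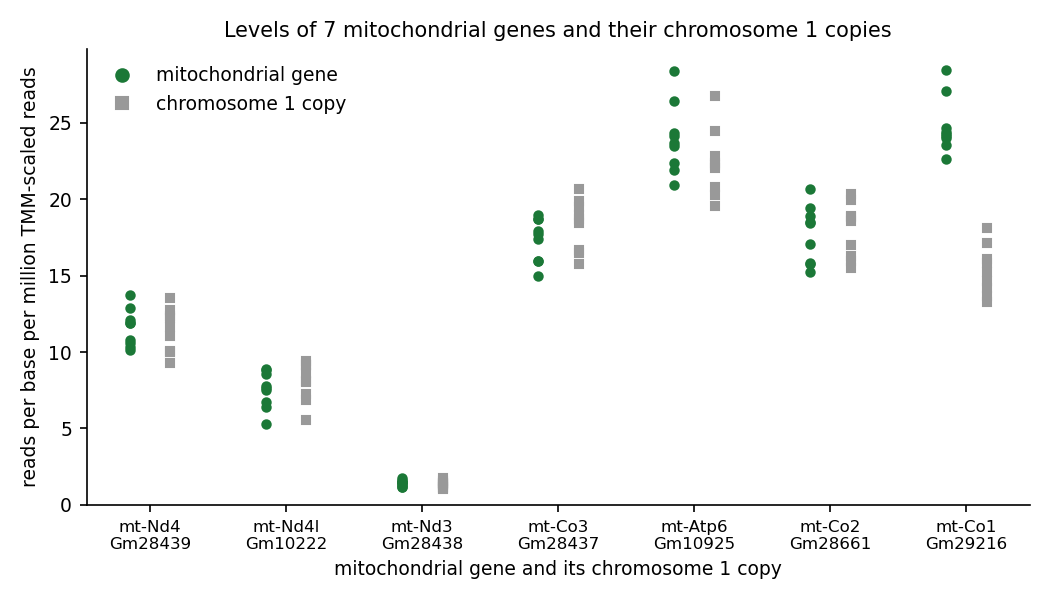
Level per base (TMM-scaled CPM per base, y axis from 0) of 7 mitochondrial genes (circles) and their chromosome 1 copies (squares), 9 libraries each. For mt-Co2 and Gm28661 the points fall at the same height, and mt-Nd3 and Gm28438 are both low, under 2.

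Most tRNA genes had levels far under those of the mRNAs beside them. The reads, in pairs of 150 bases, are longer than any tRNA gene here, and the counts do not separate mature tRNA from precursors. Levels and changes of tRNA genes are therefore not to be read as those of mature tRNA. In wild-type libraries the lowest were mt-Tf, at 0.005296 ± 0.000745 (SD, n = 3), and mt-Tv, at 0.0265 ± 0.00174 (SD, n = 3), which flank mt-Rnr1. With 250 to 437 reads per library, mt-Tf also had few counts behind its level. The remaining heavy-strand tRNA genes other than mt-Tl1 lay between 0.0784 (mt-Tk) and 0.578 (mt-Ti) on average in wild-type hearts.

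The 3 highest tRNA genes were mt-Ts1, mt-Te and mt-Tl1. The level of mt-Ts1 was 7.61, 7.903 and 7.54 in the wild-type libraries, 8.695, 9.07 and 7.05 in the heterozygous and 8.61, 9.69 and 9.79 in the homozygous libraries. The level of mt-Te was 4.61, 4.25 and 4.65 in the wild-type libraries, 5.42, 4.54 and 3.48 in the heterozygous and 4.75, 5.55 and 5.37 in the homozygous libraries. All homozygous libraries lay above all wild-type ones for both. The level of mt-Tl1 (tRNA-Leu with anticodon TAA, between mt-Rnr2 and mt-Nd1) was 1.61, 1.49 and 1.44 in the wild-type libraries, 1.49, 1.34 and 1.25 in the heterozygous and 1.37, 1.146 and 1.28 in the homozygous libraries. There the homozygous libraries lay below the wild-type ones. Among tRNA reads, mt-Ts1 made up 39.4% to 46.0% and mt-Te 22.2% to 26.1%.

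Light-strand genes were set beside the heavy-strand genes next to them. mt-Ts1 ends inside the last 3 bases of mt-Co1 on the other strand, and its level was 0.312 to 0.400 times that of mt-Co1, or 0.896 to 1.146 times with part length alone. Against mt-Td, which follows it on the heavy strand, its level was 46.6 to 58.8 times as high. mt-Nd6 shares its last 14 bases with the end of mt-Nd5 on the other strand, and mt-Nd5 stood at 0.385 to 0.654 of its level. mt-Te, which adjoins mt-Nd6, stood at 0.574 to 0.662 of the level of mt-Nd6, but with part length alone it stood above mt-Nd6, at 1.404 to 1.62 times. The cluster mt-Ta, mt-Tn, mt-Tc and mt-Ty had mean levels between 0.3698 and 0.571 in wild-type hearts, and mt-Tw, on the heavy strand before it, had 0.328. Whether the inclusion counts used the strand is not stated, so inclusion reads of a gene and of RNA from the strand opposite it cannot be told apart.

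Between homozygous and wild-type hearts, no mitochondrial gene passed the test. Of 31 identifiers, 0 were called by edgeR's quasi-likelihood test (Benjamini-Hochberg adjusted p under 0.05 over 22049 genes), against 4.39% of all genes tested, while 7 had an unadjusted p under 0.05, beside 22.7% of all genes. DESeq2 called 4 of the 31 (mt-Tv, mt-Tm, mt-Tr and mt-Tp), beside 14.3% of all genes with a DESeq2 adjusted p. Both counts are near the share over all genes. The 95% intervals of 24 of the 31 log2 fold changes spanned 0, and all lay within -0.88 and 0.61. Between these groups, 5 identifiers had all homozygous libraries above all wild-type ones and 8 all below, 13 of 31 beside 30.5% of all genes tested.

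The smallest adjusted p-values were those of 4 tRNA genes, 3 of them lower and 1 higher in homozygous hearts. The level of mt-Tv, the valine tRNA between the rRNA genes, was 0.0246, 0.0271 and 0.0279 in the wild-type libraries, 0.0242, 0.0186 and 0.0189 in the heterozygous and 0.0201, 0.0153 and 0.0185 in the homozygous libraries. All homozygous and all heterozygous libraries lay below the wild-type ones, and the heterozygous range overlapped the homozygous one. Its log2 fold change was -0.56 (SE 0.14, 95% interval -0.88 to -0.25, edgeR adjusted p = 0.0534). The level of mt-Tm, the methionine tRNA that also starts translation, was 0.367, 0.345 and 0.418 in the wild-type libraries, 0.339, 0.272 and 0.329 in the heterozygous and 0.304, 0.254 and 0.294 in the homozygous libraries. All homozygous libraries again lay below all wild-type ones. Its log2 fold change was -0.41 (SE 0.11, 95% interval -0.66 to -0.16, edgeR adjusted p = 0.0696).

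The level of mt-Tr, the arginine tRNA between mt-Nd3 and mt-Nd4l, was 0.242, 0.269 and 0.273 in the wild-type libraries, 0.245, 0.2004 and 0.206 in the heterozygous and 0.221, 0.173 and 0.214 in the homozygous libraries. The homozygous libraries lay below the wild-type ones here too. Its log2 fold change was -0.37 (SE 0.12, 95% interval -0.62 to -0.11, edgeR adjusted p = 0.0952). The level of mt-Tp, the light-strand proline tRNA next to the control region, was 0.124, 0.134 and 0.134 in the wild-type libraries, 0.146, 0.153 and 0.119 in the heterozygous and 0.159, 0.177 and 0.168 in the homozygous libraries. All homozygous libraries lay above the libraries of both other groups. Its log2 fold change was 0.36 (SE 0.10, 95% interval 0.14 to 0.59, edgeR adjusted p = 0.0697). Over 19 alternative settings mt-Tv was called in 8 (edgeR or DESeq2 adjusted p from 0.00453 to 0.192), mt-Tm and mt-Tp in 5 each, and mt-Tr in 3. Each log2 fold change kept its sign in all 19 settings.

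The protein-coding identifiers gave a median log2 fold change of 0.11 and were positive for 8 of 10, against a median of -0.0030 over all genes tested. When libraries were scaled by total counts instead of TMM, which moved the median of all genes to -0.10, 5 of 10 were positive. The median was 0.04 without homozygous replicate 3 and 0.16 without homozygous replicate 2. The largest were mt-Nd3, at 0.28 (SE 0.13, 95% interval -0.01 to 0.57, edgeR adjusted p = 0.242), and mt-Co2, at 0.27 (SE 0.09, 95% interval 0.06 to 0.48, edgeR adjusted p = 0.123). Both have a chromosome 1 copy. The lowest was mt-Nd5, at -0.14 (SE 0.18, 95% interval -0.54 to 0.27, edgeR adjusted p = 0.712), and without homozygous replicate 2 its log2 fold change was 0.02. The joined identifier of mt-Atp8, mt-Atp6 and mt-Co3 gave 0.16 (SE 0.09, 95% interval -0.04 to 0.37, edgeR adjusted p = 0.328), and that of mt-Nd4l and mt-Nd4 gave 0.04 (SE 0.13, 95% interval -0.25 to 0.33, edgeR adjusted p = 0.897). For mt-Co1 the value was 0.09 (SE 0.09, 95% interval -0.11 to 0.29, edgeR adjusted p = 0.604), and it was -0.01 without TMM. The rRNA gene mt-Rnr2 gave -0.13 (SE 0.09, 95% interval -0.32 to 0.07, edgeR adjusted p = 0.445), and mt-Rnr1 gave -0.01.

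The 19 tRNA identifiers had a median log2 fold change of -0.11, with 8 positive and 11 negative. That median was -0.03 without wild-type replicate 1, -0.21 without TMM and -0.22 with a term for the range of library numbers. Besides mt-Tp, mt-Ts1 had an interval above 0, with a log2 fold change of 0.28 (SE 0.10, 95% interval 0.06 to 0.51, edgeR adjusted p = 0.131). Besides mt-Tv, mt-Tm and mt-Tr, mt-Tl1 had an interval below 0, with -0.26 (SE 0.10, 95% interval -0.47 to -0.04, edgeR adjusted p = 0.151).

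**Figure D4:**
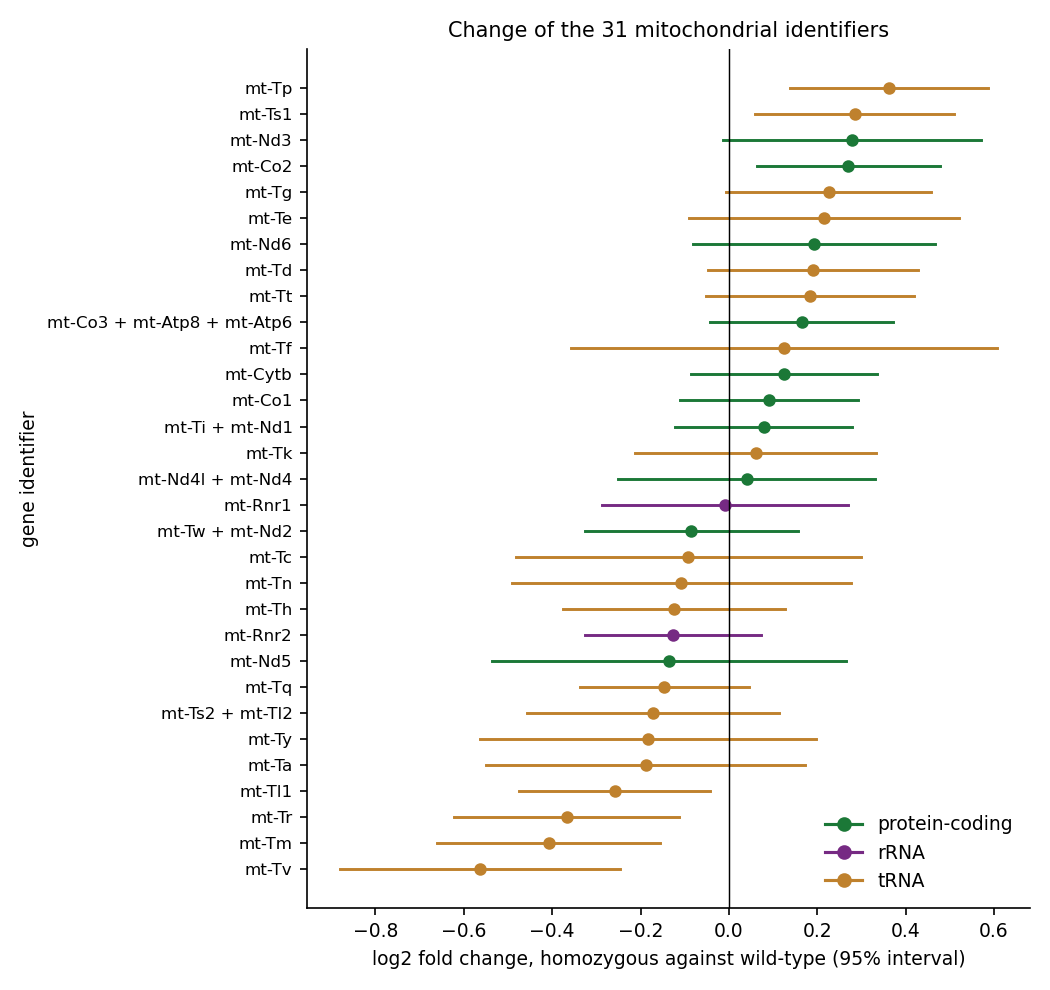
Log2 fold change of the 31 mitochondrial identifiers between homozygous and wild-type hearts (x axis), with 95% intervals from the edgeR fit, coloured by class. Joined genes share 1 row. The intervals of 24 span 0, and tRNA genes lie at both ends, from mt-Tv at -0.56 to mt-Tp at 0.36.

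Between heterozygous and wild-type hearts, 0 of 31 identifiers were called by edgeR, against 0.0% of all genes tested, and 5 had an unadjusted p under 0.05, beside 3.23% of all genes. DESeq2 also called 0, beside 0.1% of all genes. Those at an unadjusted p under 0.05 were mt-Tv, mt-Th (tRNA-His), mt-Tq (tRNA-Gln), mt-Tm and mt-Tr, and all had negative log2 fold changes, from -0.37 for mt-Tv to -0.21 for mt-Tq, each with an edgeR adjusted p of 1.00. No identifier had all heterozygous libraries above the wild-type ones and 5 had all below, beside 8.26% of all genes tested. Of the 19 tRNA identifiers 16 were negative, with a median of -0.15, but without heterozygous replicate 3 only 8 were, with a median of 0.03. Protein-coding identifiers had a median of 0.03, with 7 of 10 positive, and without that library a median of 0.11, with 10 of 10 positive.

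Between homozygous and heterozygous hearts, edgeR called 0 of 31, against 0.948% of all genes tested, with 2 at an unadjusted p under 0.05, beside 14.1% of all genes. DESeq2 called 0, beside 5.17% of all genes. With the replicate number as a block, edgeR again called 0 of 31, while the share of all genes called was 1.83%. The 2 identifiers were mt-Tp, with a log2 fold change of 0.27 (SE 0.10, edgeR adjusted p = 0.264), and its heavy-strand neighbour mt-Tt (tRNA-Thr), with 0.27 (SE 0.11, edgeR adjusted p = 0.297). The same 2 were the only ones whose groups did not overlap, beside 17.6% of all genes tested. The 3 comparisons share their libraries and are not independent of each other.

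Among the 15 mRNA and rRNA genes, the homozygous libraries differed most from each other at mt-Nd4l and mt-Nd5. Homozygous replicate 2 deviated from its group mean (log2 scale) by -0.42 for mt-Nd4l, -0.32 for mt-Nd5 and -0.21 for mt-Nd4, and by 0.17 for mt-Nd3. Homozygous replicate 3 deviated by 0.34 for mt-Nd5 and 0.33 for mt-Nd4l. Heterozygous replicate 2 had the same signs as homozygous replicate 2 for these 4 genes, with -0.24 for mt-Nd4l and -0.23 for mt-Nd5. Heterozygous replicate 1 stood above its group mean for all 15 mRNA and rRNA genes. Heterozygous replicate 3, the library with the most atrial marker RNA, stood below it for 14 of the 15, and the part of those atrial markers in this was not tested.

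**Figure D5:**
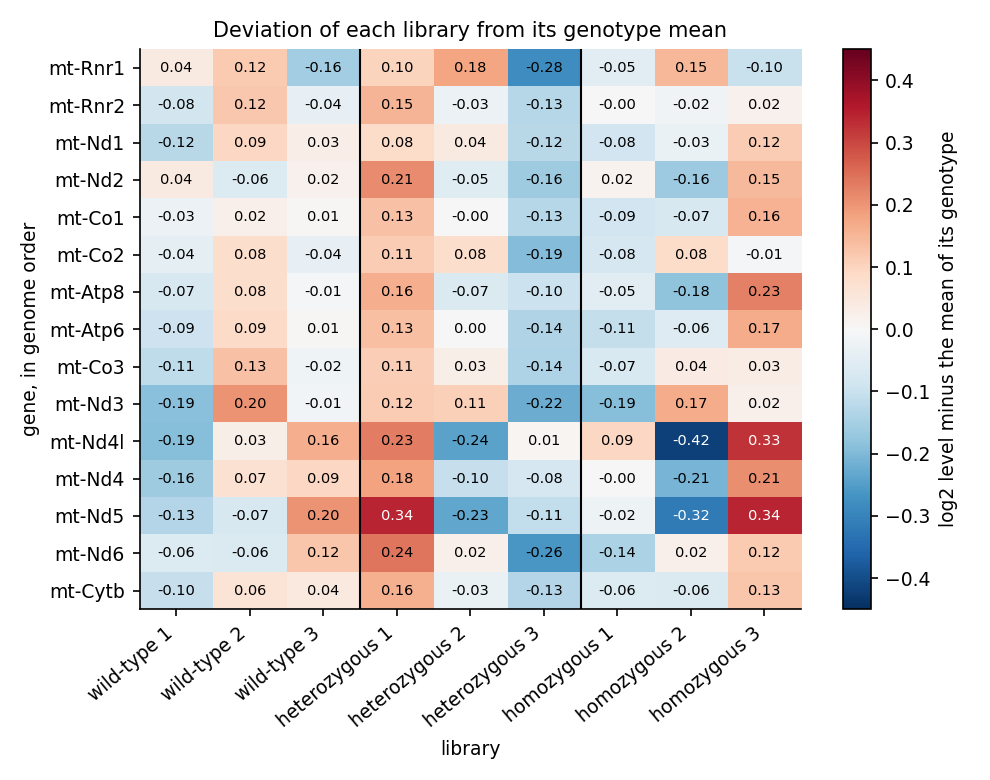
Log2 level of the 15 mRNA and rRNA genes (rows, in genome order) in each library (columns), minus the mean of its genotype. Red is above and blue below the mean. The lowest values are those of homozygous replicate 2 at mt-Nd4l (-0.42) and mt-Nd5 (-0.32).

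The table also lists exclusion counts (reads spliced across a part), although mitochondrial genes have no introns. They fell on the heavy-strand transcripts alone: all 9 light-strand parts had 0 in every library, as did 4 of 34 heavy-strand parts (mt-Tf, mt-Rnr1, mt-Cytb and mt-Tt). The other 30 parts had them in every library, with up to 45053 reads at mt-Tg. They were most numerous from mt-Tg to mt-Nd4l, where the median over libraries was 24927 or more for each part. At mt-Rnr2 the median was 1319 and at mt-Nd5 6155. In heterozygous replicate 1, mt-Ti and mt-Tm each had 16198 exclusion reads, and light-strand mt-Tq between them had 0. Whether inclusion counts were kept apart by strand in this way was not tested.

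The percent spliced in (PSI), here a fraction from 0 to 1, sets inclusion against these skipping reads. Of the 43 parts, 22 could be tested with limma, and 0 were called in each comparison. The share of all parts called was 0.413% for homozygous against wild-type, 0.0755% for heterozygous against wild-type and 0.264% for homozygous against heterozygous. At an unadjusted p under 0.05 there were 2, 4 and 6 parts, in the same order, beside 7.69%, 4.04% and 6.93% of all parts. These parts are not separate observations, because neighbouring parts share skipping reads. The 2 parts were mt-Ti and its overlap with mt-Nd1. Both were also among the 6, with mt-Tm, mt-Nd2, mt-Tw and the overlap of mt-Nd2 with mt-Tw. That overlap and mt-Tw had identical exclusion counts in every library. The smallest p was at mt-Tw (tRNA-Trp), whose PSI was 0.617, 0.581 and 0.632 in the wild-type, 0.423, 0.361 and 0.361 in the heterozygous and 0.524, 0.704 and 0.456 in the homozygous libraries. Its heterozygous libraries lay below all others, and the homozygous ones spread across the wild-type range. The heterozygous difference from wild-type was -0.23 (SE 0.067, limma adjusted p = 0.955). At mt-Ti (tRNA-Ile) the mean PSI was 0.5855 ± 0.1096 in wild-type and 0.761 ± 0.0486 in homozygous hearts (SD, n = 3), a difference of 0.18 (SE 0.061, limma adjusted p = 0.534).

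Nuclear genes that serve the mitochondrial genome were read in the same fit. Of 19 genes for transcription and replication of mitochondrial DNA, 0 passed in homozygous against wild-type hearts by edgeR, beside 4.39% of all genes, and 6 had an unadjusted p under 0.05, beside 22.7%. Their median log2 fold change was -0.12. The smallest adjusted p-values went both ways: Mgme1, an exonuclease of mitochondrial DNA, had -0.38 (SE 0.10, edgeR adjusted p = 0.0612), and Mterf3, a factor of the mitochondrial transcription termination family, had 0.32 (SE 0.09, edgeR adjusted p = 0.0628). Tfam, which packages the DNA and starts transcription, had -0.24 (SE 0.07, edgeR adjusted p = 0.0853). Of 25 genes for processing and stability of the RNA, 0 rose and 1 fell. That gene was Trmt5, a tRNA methyltransferase, at -0.46 (SE 0.10, edgeR adjusted p = 0.0316). Of 8 coactivators and factors of mitochondrial biogenesis none was called by edgeR, and 3 had an unadjusted p under 0.05. Of the 25 genes for processing and stability, 11 had an unadjusted p under 0.05 by edgeR, beside 22.7% of all genes. The counts called at the adjusted threshold in these lists are near the share over all genes.

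Of 71 mitochondrial ribosomal protein genes 1 rose, Mrpl36, at 0.43 (SE 0.09, edgeR adjusted p = 0.0255), and 60 were positive, with a median of 0.23. An unadjusted edgeR p under 0.05 was found for 29 of the 71, beside 22.7% of all genes. Of 74 nuclear genes for respiratory complexes I to V, 2 rose and 0 fell, 2.70% beside 4.39% of all genes. These were the complex I subunit Ndufb3, at 0.58 (SE 0.11, edgeR adjusted p = 0.01995), and the complex III hinge subunit Uqcrh, at 0.41 (SE 0.10, edgeR adjusted p = 0.0471). In all, 68 of the 74 were positive, beside 10955 of all 22049 genes. Their median log2 fold change was 0.29, and the mitochondrial protein-coding identifiers had 0.11. The 4 complex II genes differed, with 1 positive, 3 negative and a median of -0.0098. Summed CPM did not overlap between homozygous and wild-type libraries for complexes I, III and IV. For complex V it did, at 14580 to 16630 against 14640 to 14910 CPM. Homozygous replicate 2 had the highest sum for complexes I, III, IV and V. Of the 74, 41 had an unadjusted edgeR p under 0.05, beside the same 22.7%. Beside this, cardiomyocyte markers summed to 52840 to 63210 CPM in wild-type and to 64800 to 73110 CPM in homozygous libraries, with 1 of 5 called, the ventricular light chain Myl2, at 0.79 (SE 0.19, edgeR adjusted p = 0.0437). Their part in the values of the mitochondrial genes was not tested.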

How the data were processed

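The authors deposited 1 table of exonic parts with 3 columns per library: inclusion counts, exclusion counts and PSI as a fraction, on GRCm39. Salmon 1.2.1 and cutadapt 1.8 are listed, with no role, per the submitters' processing notes. Every deposited PSI fraction equalled inclusion counts over part length plus 148 bases, divided by that plus exclusion counts over 148 bases (largest gap 5.0e-07). Groups and replicate numbers came from the titles, and library sums were 296629818 to 323205269 inclusion counts.

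Inclusion counts were summed per gene identifier, with the 5 joined mitochondrial identifiers (11 genes) kept whole. All 9 libraries entered 1 fit with edgeR 4.0.16 (TMM, filterByExpr, quasi-likelihood, Benjamini-Hochberg over 22049 genes). PSI was fitted with limma 3.58.1 over 55648 parts with 10 or more reads in each library and a PSI not under 0.05 or over 0.95 in all of them, and was called at an adjusted p under 0.05 and a difference of at least 0.1. Copies were searched with blastn 2.17.0. DESeq2 1.42.0, other scalings, filters and left-out libraries were tried. Both tests were also run on simulated data with known changes. Those data had the same dispersion for all genes and only sampling noise in PSI, so they do not give error rates for these libraries. The members and gene lists were chosen with earlier results of these data known. All 37 members may be named, tRNA genes in full only where extreme, near the threshold or beside a light-strand gene (the last 2 chosen after their values were seen). From nuclear lists, called genes were named, and Mgme1, Mterf3 and Tfam after their values were seen. Same-number libraries are not stated to be related. In the data, all 3 same-number pairs of heterozygous with homozygous libraries had a correlation of deviations over 0.1 (0.136 to 0.605). The replicate block was therefore read as a possible pairing for that comparison only. Different-number pairs of these groups ran from -0.456 to 0.227, so a value over 0.1 does not show that libraries are related. Genes listed under a joined identifier with another gene were not counted in nuclear lists.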

Additional observations from a re-analysis of the deposited data

How the results depend on the processing

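In homozygous against wild-type hearts the count of mitochondrial identifiers called moved from 0 to 4 with DESeq2, to 3 with total counts in place of TMM, to 1 when TMM used genes outside the mitochondrial genome only, to 4 with no filter on low counts, to 2 when only the compared groups were fitted and to 3 with a replicate block. Leaving out 1 library gave 0 to 2, with calls when a heterozygous library was left out: 1, 2 and 1 without heterozygous replicates 1, 2 and 3. The share of all genes called moved as well, from 4.39% to 14.3% with DESeq2, 6.06% with total counts, 4.51% with TMM outside the mitochondrial genome, 6.38% with no filter, 6.33% with only the compared groups and 2207 of 22049 with the replicate block, and between 1.3% and 5.81% over left-out libraries. Every call was one of mt-Tv, mt-Tm, mt-Tr and mt-Tp. The count stayed at 0 with a term for the range of library numbers, with single-gene identifiers only and, both chosen after seeing the data, with joined parts split by gene and with the copies added. The library-number term lowered the share of all genes called to 1.35%. It moved mitochondrial log2 fold changes by up to 0.3411, the most of any setting here. As all homozygous libraries lie in the lower range, that term is partly confounded with genotype. The share was 4.33% with single-gene identifiers, 4.36% with split parts and 4.38% with the copies. In the other comparisons the mitochondrial count stayed at 0 under every alternative, and 0 PSI parts were called under every setting. The cause of these moves was not tested. Without TMM the log2 fold change of mt-Co1 reversed to -0.01314. That of mt-Nd5 ranged from -0.3212 to 0.01864 over left-out libraries and reversed without homozygous replicate 2.

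The mitochondrial share (18.2%, 18.3% and 18.1% in wild-type, heterozygous and homozygous hearts) became 7.97%, 8.08% and 7.96% when parts were scaled per base, 9.77%, 9.75% and 9.74% with single-gene identifiers only, and 25.8%, 26.2% and 26.0% with the copies added. Over left-out libraries it ranged from 17.44% to 18.76%. With part length alone, the rRNA to protein-coding ratio moved from 0.231 to 0.213 in wild-type and from 0.211 to 0.195 in heterozygous hearts, and the tRNA to protein-coding ratio from 0.0704 to 0.191, from 0.0672 to 0.182 and from 0.0716 to 0.194 in the 3 groups.

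Same-number pairs with a wild-type library had correlations of deviations from -0.219 to 0.269, over 0.1 in 1 of 3 pairs with heterozygous and 1 of 3 with homozygous libraries, so there the replicate block shares a number only. In the heterozygous with homozygous comparison it moved the count over all genes from 209 to 404 and changed no mitochondrial call.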
